A study of Homo sapiens with 4 samples.

Results

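TEAD4 peaks that were strong in SNU216 and missing from the MKN28 list are described here, as places where a transcription factor was detected in one gastric cancer line and not called in the other. A peak counted as strong when the authors' peak caller gave it a score of at least 100, and as SNU216-only when it shared no base with any MKN28 peak. The rule found 1012 such peaks among the 4866 strong SNU216 peaks, the 11540 SNU216 peaks of any score and the 51017 peaks of both lists together. The peaks were chosen by their score and by the lack of overlap, so both values are descriptions and support nothing. The other 3854 strong SNU216 peaks shared bases with an MKN28 peak and are called shared. The 3687 SNU216 peaks that scored under 100 and met no MKN28 peak are called weaker SNU216-only peaks.

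SNU216 and MKN28 are human gastric cancer cell lines, and sonicated chromatin of each went through chromatin immunoprecipitation with a TEAD4 antibody and sequencing (ChIP-seq). The groups are the SNU216 TEAD4 library with its SNU216 input, and the MKN28 TEAD4 library with its MKN28 input. No treatment, genotype or time is given in the labels, and each line gave 1 TEAD4 library, so differences between lines are without replicates and no p-value is given. The score depends on sequencing depth, which is unknown, and an MKN28 peak below the authors' calling threshold is not listed, so a site called SNU216-only is not shown to lack TEAD4 in MKN28. The intervals in the text cover counting error over peaks only and treat neighbouring peaks as independent.

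TEAD4 belongs to the TEAD family of DNA-binding transcription factors. These proteins bind DNA but activate genes mainly through the co-activators YAP and TAZ, which the kinases of the Hippo pathway keep out of the nucleus. In epithelial cells much TEAD binding is found at enhancers far from gene starts, and the set of occupied enhancers is known to differ between cell types. Positions below are on the human genome build hg19, and a gene mentioned with a chromosome band is background on the band. No peak was assigned to a gene, and no sequence of hg19 was used.

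SNU216-only peaks made up 20.8% of the strong SNU216 peaks (exact 95% Clopper-Pearson interval 19.7 to 21.97). Among SNU216 peaks that scored under 100, 55.2% (54.04 to 56.4) met no MKN28 peak. The SNU216-only share fell through the range of scores: it was 12.5% of 2133 peaks that scored at least 200, 8.89% of 1181 at 300 or more, and 4.0% of 475 at 500 or more. The SNU216-only peaks therefore sat low in the strong range, with a median score of 146 and quartiles of 117 and 204, against 193 with quartiles of 135 and 324 in shared peaks. The threshold itself cut through a continuous range. The 5 peaks just inside it scored from 100.1 to 100.3 and were 319 to 591 bp wide, and the 5 weaker SNU216-only peaks just outside it scored from 99.7 to 99.9 and were 400 to 603 bp wide.

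The strongest SNU216-only sites lay on several chromosomes. The MKN28 peaks nearest to the 15 strongest scored from 52.03 to 214 apart from 1, which scored 753. The highest score, 1183, belonged to a peak of 1177 bp in 8q22.3 (chromosome 8, 104992168 to 104993344). Its nearest MKN28 peak lay 91.4 kb away and scored 61.4. The second, in the centromere band 2q11.1 (chromosome 2, 96307558 to 96308213), scored 1104 and lay 57.02 kb from an MKN28 peak that scored 102. Both thus lay in stretches of chromatin with no MKN28 peak close by.

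The third site was in 3q26.2, the band of MECOM, which encodes a zinc finger transcription factor. This peak (chromosome 3, 168829781 to 168830428) scored 1011, was 648 bp wide and lay 33.6 kb from an MKN28 peak that scored 62.7. The fourth, in 5q13.2 (chromosome 5, 71766552 to 71767251), scored 999.8 and lay 17.7 kb from an MKN28 peak that scored 73.8. The fifth differed from these in its neighbour. It was in 1q21.3 (chromosome 1, 152359296 to 152360087), the band of the epidermal differentiation complex, a group of genes for proteins of the outer layers of stratified epithelium. It scored 758, and an MKN28 peak that scored 753 was called 5.18 kb away.

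The next 10 by score ran from 541 to 737. A peak in 8q24.21 (chromosome 8, 127387513 to 127388131) scored 737, in the band of the MYC oncogene, and lay 15.96 kb from an MKN28 peak that scored 55.97. A peak in 6q26 (chromosome 6, 163647611 to 163648474) scored 704 inside a stretch of 1303 kb without an MKN28 peak. A peak of 1882 bp in 5p15.33 scored 692 and lay at the very start of the chromosome 5 sequence (9950 to 11831). Whether its reads came from repeated sequence was not tested. The remaining 7 were in 6p24.1, 12q24.11, the centromere band 12p11.1, 10q21.1, 10q21.2, 10q25.3 and 12p13.31, with scores from 541 to 647. Chromosomes 10 and 12 held 3 each of the 15 strongest sites.

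Most SNU216-only sites lay in the same neighbourhoods as MKN28 sites without touching them. The median distance to the nearest MKN28 peak, from end to end, was 16.7 kb (exact interval of the median 14.8 to 19.0 kb), with quartiles of 4.59 and 51.03 kb. An MKN28 peak was present within 1 kb of 81 sites (8.004%), within 10 kb of 412 sites (40.7%, 37.7 to 43.8) and within 100 kb of 877 sites (86.7%, 84.4 to 88.7). The bases that separate MKN28 peaks were farther away, with a median of 40.2 kb. Of these bases 20.04% lay within 10 kb of an MKN28 peak and 72.4% within 100 kb. These bases include sequence where no read can be placed, and stretches that touch centromere, variable or stalk bands were left out. Weaker SNU216-only peaks had a median distance of 20.4 kb (19.4 to 22.2), and 34.1% (32.6 to 35.7) lay within 10 kb.

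**Figure D1:**
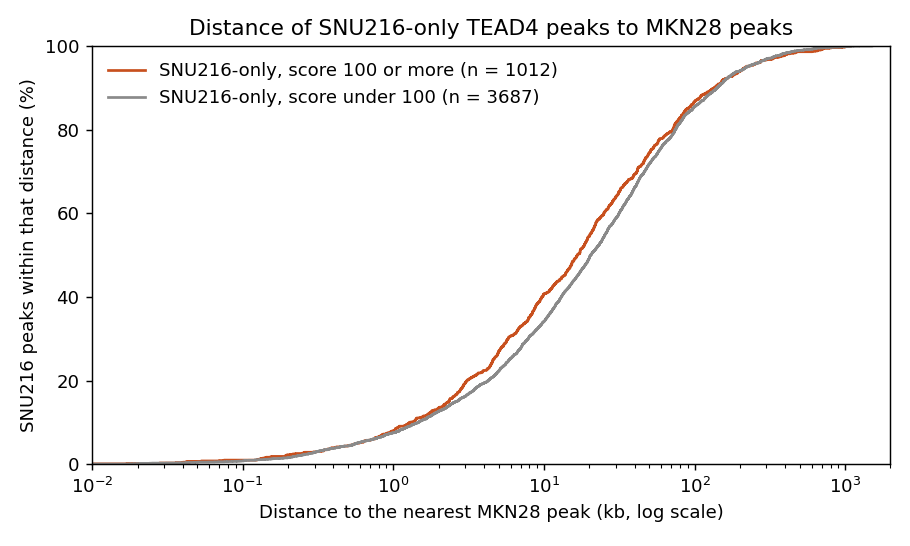
Cumulative share of SNU216-only peaks (y axis, percent) against the distance to the nearest MKN28 peak (x axis, kb, log scale), for 1012 peaks that scored 100 or more and 3687 that scored under 100. The curves run close together, with medians of 16.7 and 20.4 kb, and the curve of the strong peaks lies above the other between about 5 and 50 kb.

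The distance did not follow the strength of the SNU216-only site. Across the 1012 peaks of this 1 library, Spearman's rho was 0.01 between score and distance and -0.02 between width and distance. The median score was 145 for the 412 sites up to 10 kb from an MKN28 peak, 147 for the 465 sites at 10 to 100 kb and 139.9 for the 135 sites beyond 100 kb. The neighbouring MKN28 peak did differ with distance. Its median score was 121 (107 to 138) for sites up to 10 kb, 87.1 (80.5 to 95.1) at 10 to 100 kb and 88.5 (74.4 to 95.5) beyond 100 kb. Over all 1012 sites the neighbour's median score was 98.2 (91.3 to 102.8), close to the 99.75 of all MKN28 peaks. The 90th percentiles were 413 and 422. A neighbour that scored 500 or more was found for 80 of the 1012 sites (7.91%). The share of all MKN28 peaks that scored 500 or more was not computed. Such a neighbour was found for 47 of the 412 sites up to 10 kb (11.4%) and 33 of the 465 at 10 to 100 kb (7.10%). None of the 135 sites beyond 100 kb had one, and the exact interval reaches 2.70%. For weaker SNU216-only peaks the shares at these distances were 8.43%, 4.97% and 2.61%. The fall with distance was thus not particular to the strong sites.

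Many of these neighbours were sites occupied in both lines. For 369 of the 1012 SNU216-only strong sites (36.5%, 33.5 to 39.5), the nearest MKN28 peak itself overlapped another SNU216 peak. Of all MKN28 peaks, each counted once, 17.1% (16.7 to 17.5) overlapped an SNU216 peak. An MKN28 peak nearest to several sites was counted for each of them, so these shares differ in unit. For SNU216-only strong sites the share was 49.3% (44.3 to 54.2) up to 10 kb. It was 28.6% (24.5 to 32.9) at 10 to 100 kb and 24.4% (17.5 to 32.6) beyond 100 kb. For weaker SNU216-only peaks it was 26.0% (24.6 to 27.4) at all distances and 36.8% (34.1 to 39.5) up to 10 kb. About as many sites lay close to a jointly occupied one as lay close to an MKN28 peak with no SNU216 counterpart, since 203 of the 412 sites up to 10 kb belonged to the first kind.

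The closest cases were adjoining peaks. In 10q22.2 an SNU216 peak (chromosome 10, 75647434 to 75647853, score 292) began at the base after the end of an MKN28 peak that scored 92.9, with a distance of 0 bp. A peak in 10p11.22 (33553049 to 33553608, score 169) lay 17 bp from an MKN28 peak that scored 172. The next 3, in 1q23.3, 6q14.1 and 5q32, lay 28 to 40 bp from an MKN28 peak. Of all SNU216-only strong sites, 23 (2.27%) lay within 0.2 kb of an MKN28 peak. For these the division into 2 separate sites rests on where the peak caller placed the peak ends.

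The farthest sites lay in long stretches without MKN28 peaks on chromosomes 9, 16 and 5. The farthest of all (chromosome 9, 31045937 to 31046295, band 9p21.1) was 1090.2 kb from the nearest MKN28 peak and scored 125. Others of the same band, at 31137112 to 31137676 and 31185874 to 31186269, were 999 and 950.3 kb away and scored 139.9 and 108. These 3 shared a stretch of 2580 kb with no MKN28 peak, in which SNU216 had 6 peaks of any score. A further 9p21.1 peak (28234657 to 28235383) scored 269 and lay 780.1 kb from an MKN28 peak. In 5p13.3 a single peak (chromosome 5, 30279352 to 30279739, score 162) was 995 kb away. In 16q21 a peak at 59577456 to 59578019 scored 348 and lay 715 kb from an MKN28 peak, and a peak at 59669506 to 59669902 scored 118 and lay 807 kb away. In 16p13.3 a peak at 5955889 to 5956573 scored 143 and lay 711 kb away. Only 14 of the 1012 sites (1.38%) were more than 500 kb from an MKN28 peak.

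The stretches between neighbouring MKN28 peaks show how the SNU216-only sites filled them. Of 39453 such stretches, 896 held an SNU216-only strong site, 806 of them a single one, 72 of them 2 and 18 of them 3 or more. The stretch with the most held 5 and was in 3q12.1, 841 kb long (chromosome 3, 99513526 to 100354855), with 9 SNU216 peaks of any score. Its strong sites scored 307, 238, 110.2, 168 and 386 and lay 106 to 366 kb from the nearest MKN28 peak. A second stretch of 3q12.1, 649.5 kb long, held 3 that scored 232, 311 and 233. In the whole band 8 of 9 strong SNU216 peaks were SNU216-only (88.9%, 51.8 to 99.7). This band was singled out after its values were seen.

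Long stretches were rare among all and held few of the sites. Of 215 stretches of 1 Mb or more, 32 held an SNU216-only strong site, against 896 of all 39453 stretches. A long stretch thus held a site more often than stretches of every length did. The sites in the long ones numbered 41 of the 1008 that lay between 2 MKN28 peaks. The share of bases in stretches of 1 Mb or more was not computed. The regions around SNU216-only sites were less rich in MKN28 peaks than those around shared sites. Within 500 kb on either side, SNU216-only strong sites had a median of 17 MKN28 peaks (quartiles 9 and 26), shared sites 23 (14 and 32) and weaker SNU216-only peaks 16 (8 and 25.5), with overlapping partners not counted. The density of other SNU216 peaks differed less, with medians of 7 (4 and 11) around SNU216-only strong sites, 8 (4 and 12) around shared sites and 6 (3 and 10) around weaker ones. Since shared sites must by the rule lie where MKN28 has peaks, the MKN28 count is a description.

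**Figure D2:**
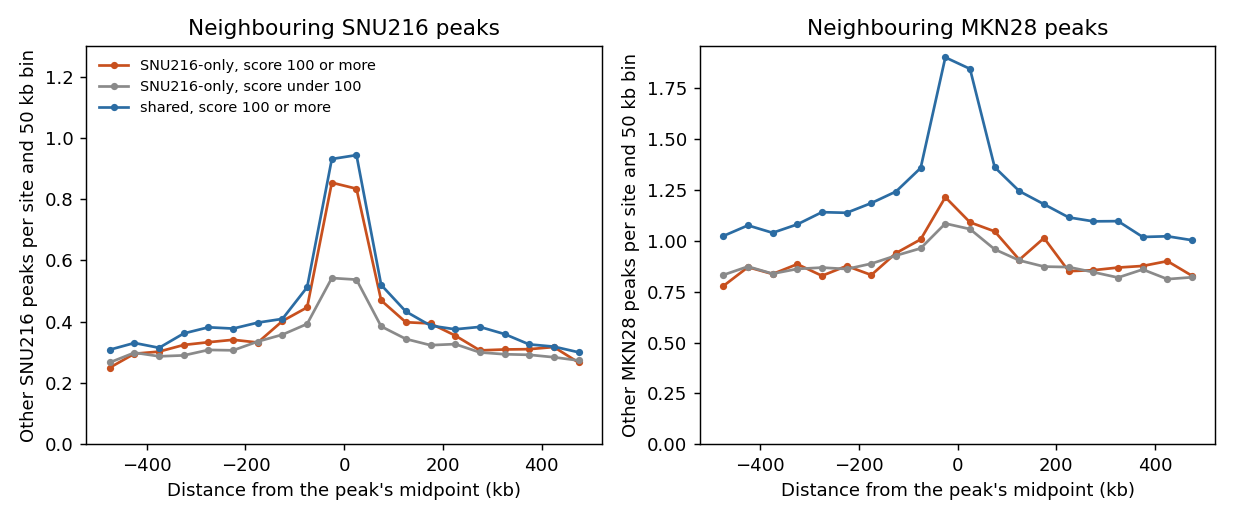
Mean number of other SNU216 peaks (left) and MKN28 peaks (right) per site in bins of 50 kb (y axis), against distance from the site's midpoint (x axis, kb), for SNU216-only strong, weaker SNU216-only and shared strong peaks. In the bin just before the midpoint, SNU216-only strong sites had 0.85 other SNU216 peaks, weaker ones 0.54 and shared ones 0.93, while MKN28 peaks numbered 1.21, 1.09 and 1.90 per site. In the bin just after it, the SNU216 values were 0.83, 0.54 and 0.94 and the MKN28 values 1.09, 1.06 and 1.85.

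SNU216-only sites were about as wide as shared sites of like score. A wide peak overlaps another more easily, so width bears on the division and is a description. Their median width was 487 bp (479 to 495), with quartiles of 406 and 578 bp, against 511 bp (505 to 516) in shared strong peaks and 339 bp (337 to 341) in weaker SNU216-only peaks. Width rose with score in both strong sets, with a rho across peaks of 0.27 in SNU216-only and 0.48 in shared peaks. When the strong SNU216 peaks were ranked by score and cut into 10 equal groups, the median widths of SNU216-only and shared peaks in the same group stood in a ratio of 0.98 to 1.03. In the lowest group (scores 100 to 110.4) the medians were 451 bp (430 to 474) in 172 SNU216-only peaks and 439 bp (421 to 456) in 315 shared peaks. In the highest group (scores of 491 and above) they were 648 bp (498 to 792) in 19 and 647 bp (630 to 667) in 468. Each SNU216-only width divided by the median shared width of its group had a median of 1.01 (0.997 to 1.03). That median was 0.982 (0.978 to 0.986) with SNU216 peaks of any score. It was 0.956 (0.939 to 0.972) when 50% of both peaks had to overlap. Under the other settings tried it stayed within 0.997 to 1.03.

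**Figure D3:**
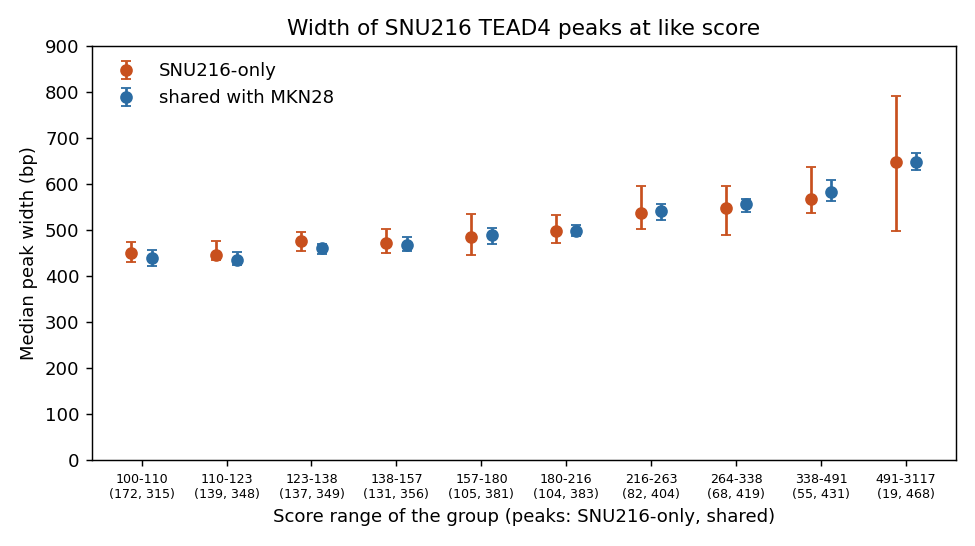
Median width (y axis, bp) of SNU216-only and shared peaks in 10 groups of strong SNU216 peaks by score (x axis, with the number of peaks of each kind), with exact 95% intervals of the median as bars. The medians of both kinds go from about 440 to 450 bp in the lowest group to about 650 bp in the highest, and the intervals share values in every group.

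A small set of SNU216-only sites was much wider, and several lay beside centromeres or at a chromosome start. A width of 1 kb or more was reached by 25 of the 1012 SNU216-only strong peaks (2.47%, 1.605 to 3.63), by 82 of the 3854 shared ones (2.13%, 1.70 to 2.63) and by 46 of the 3687 weaker SNU216-only ones (1.25%, 0.915 to 1.66). Of these wide peaks, 6 of 25 SNU216-only strong ones (24.0%, 9.36 to 45.1) lay within 1 Mb of a centromere band or a chromosome end, as did 23 of 46 weaker SNU216-only ones (50%, 34.9 to 65.1) and 4 of 82 shared ones (4.88%, 1.34 to 12.02). Over peaks of every width the shares were 3.56% (2.50 to 4.89) in SNU216-only strong, 5.45% (4.74 to 6.23) in weaker SNU216-only and 3.19% (2.66 to 3.80) in shared peaks. Wide peaks near these places were thus no trait of the strong SNU216-only sites, since the weaker ones had a larger share of them. Whether the wide peaks lay on repeated sequence was not tested.

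The widest SNU216-only site was 3281 bp (chromosome 4, 49326806 to 49330086) in the centromere band 4p11 and scored 156. The second, of 2872 bp, was in 1p11.2 (chromosome 1, 121482615 to 121485486), scored 159, and lay in a stretch of 21307 kb without an MKN28 peak, which spans the centromere. Another 4p11 peak, at 49314756 to 49317545, was 2790 bp wide. A peak in 7p11.2 (chromosome 7, 56438110 to 56440798) was 2689 bp wide with a score of 110.4. The fifth, of 2676 bp, was in 17q12 (chromosome 17, 36283654 to 36286329), the band that also holds ERBB2, which encodes a receptor tyrosine kinase. The bands 4p11 and 17q12 together held 7 of the 25 wide sites.

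Other wide sites lay inside chromosome arms. The strongest of all, in 8q22.3, was one of them with its 1177 bp. A peak of 1644 bp in 10p11.22 (chromosome 10, 33268809 to 33270452) scored 184 and had an MKN28 peak 0.845 kb away. A peak of 1389 bp in 11p13 (chromosome 11, 35132623 to 35134011) scored 306 and lay 11.3 kb from one, and a peak of 1030.0 bp in 20q11.22 (chromosome 20, 33907722 to 33908751) scored 378 and lay 13.5 kb from one. The 25 wide sites were spread over 13 chromosomes and had a median score of 159, against 146 for all SNU216-only strong sites. Wide SNU216-only sites were therefore not the strongest ones as a set.

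At the chromosome ends, 4 SNU216-only sites lay outside the first or last MKN28 peak of their chromosome. They were the 5p15.33 site, a site in 12p13.33 (chromosome 12, 95290 to 95791) that scored 234, and a pair in 10q26.3 (135484005 to 135484332 and 135490622 to 135491249) that scored 115 and 109. The pair lay 2.82 and 9.44 kb beyond the last MKN28 peak, and the sites of 5p15.33 and 12p13.33 lay 35.4 and 66.7 kb before the first.

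SNU216-only sites were mostly scattered, with small groups. When sites were joined wherever the next began within 100 kb, 746 of the 1012 stood alone and 266 (26.3%, 23.6 to 29.1) fell into 118 clusters. There were 94 clusters of 2, 19 of 3, 4 of 4 and 1 of 5. The shared sites, nearly 4 times as many, had 55.8% of their number in 748 clusters, the largest of 18. Sites in greater number lie closer together on average, and no comparison at equal number was made. The clustered shares of both kinds are therefore not comparable. Of the 118 clusters, 66 had no MKN28 peak between their first and last site and 30 held a shared strong SNU216 peak. The median span was 28.2 kb and the longest was 161 kb.

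Neighbours tended to be of the same kind. The nearest strong SNU216 peak was itself SNU216-only for 315 of the 1012 SNU216-only sites (31.1%, 28.3 to 34.1) and for 714 of the 3854 shared sites (18.5%, 17.3 to 19.8), where SNU216-only peaks are 20.8% of all strong peaks. Another strong SNU216 peak of either kind lay within 10 kb of 27.6% (24.8 to 30.4) of SNU216-only and 26.2% (24.8 to 27.6) of shared sites. A shared strong peak lay within 100 kb of 487 of the SNU216-only sites (48.1%, 45.004 to 51.3).

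The largest cluster, of 5 sites, was in 5q32 (chromosome 5, 148290263 to 148451620). Its sites scored 100.4 to 216 and each lay 1.72 to 9.06 kb from an MKN28 peak, with 6 MKN28 peaks and 4 shared strong SNU216 peaks inside the cluster. Here SNU216-only and shared sites lay in the same region. The 5q13.2 cluster (71683876 to 71767251) held the site that scored 999.8 and 3 others, which scored 114, 189.9 and 143. In it 3 of the 4 sites lay within a few kilobases of each other, in a stretch of 72.8 kb between MKN28 peaks.

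Of the other clusters, those of 5p13, 5q11.2 and 17q12 had no MKN28 peak inside. The cluster at 5p13.3 to 5p13.2 (chromosome 5, 33788867 to 33855337) held 4 sites that scored 204, 125, 128 and 156, at 186 to 252 kb from the nearest MKN28 peak. A cluster of 3 in 5q11.2 (52619321 to 52658968) scored 207, 127 and 172 and lay 46.2 to 85.04 kb from an MKN28 peak. Chromosome 5 held 4 of the 8 named clusters, of which 3 were chosen among 19 clusters of 3 by their widest peak, and 5 of all 24 clusters of 3 or more. The clusters of 14q22.1, 8q21.3 and 4p11 each had 2 MKN28 peaks inside. In 14q22.1 (chromosome 14, 51862769 to 52006786) 3 sites scored 414, 481 and 254, and they lay 4.14 to 26.98 kb from an MKN28 peak. In 8q21.3 (chromosome 8, 91782002 to 91871833) 3 sites scored 244, 103 and 120.3 and lay 5.75 to 29.04 kb from an MKN28 peak.

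The clusters of 4p11 and 17q12 were unlike the other 6 in width. The 4 sites of 4p11 had a median width of 2427 bp and scored 111 to 156, and the 4 sites of 17q12 (chromosome 17, 36283654 to 36297107) had a median width of 2129 bp and scored 106 to 194 within a span of 13.5 kb. The last 3 sites of 17q12 nearly touched each other. Neither cluster held a shared strong peak, and nor did those of 5p13.3 to 5p13.2, 8q21.3 and 5q11.2. The other 6 of the 8 largest clusters had median widths of 454 to 720.0 bp.

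**Figure D4:**
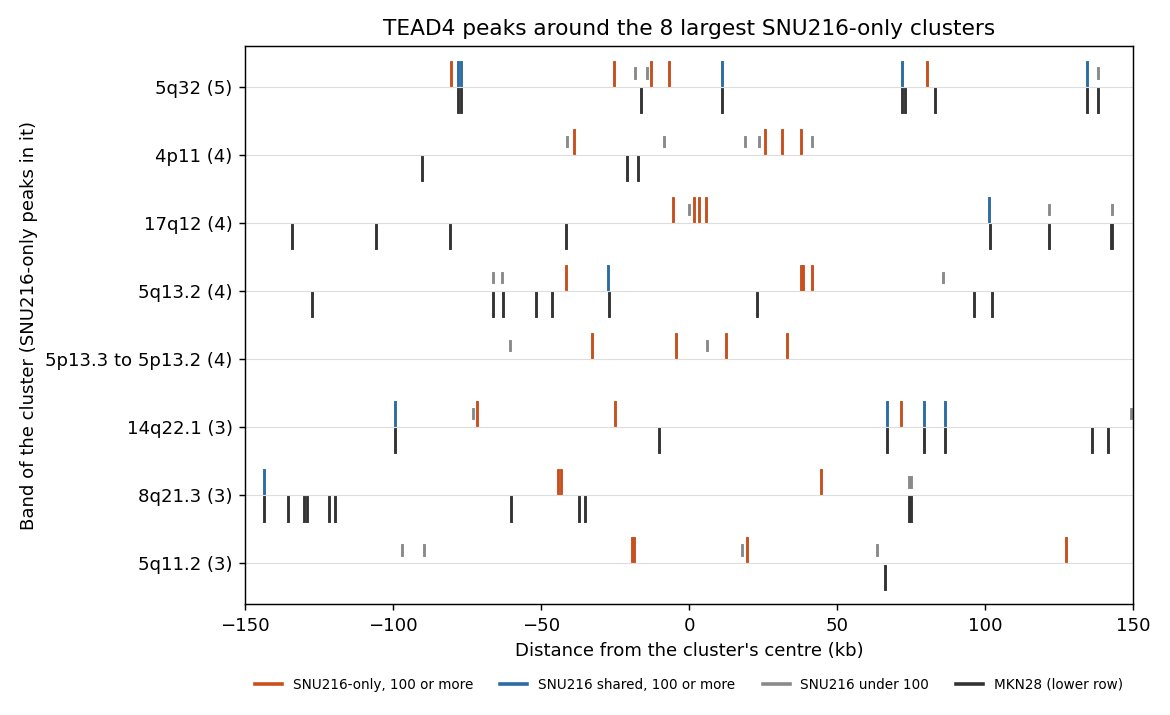
Peaks within 150 kb of the centre of the 8 largest SNU216-only clusters (x axis, kb from the cluster's centre), 1 row per cluster with its band and number of SNU216-only sites. Marks above each line are SNU216 peaks by kind and marks below it are MKN28 peaks, and the rows of 5p13.3 to 5p13.2 and 5q11.2 show SNU216-only sites with no MKN28 peak inside the cluster, as does 17q12.

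SNU216-only sites were found on chromosomes 1 to 22 and X, and their share of strong SNU216 peaks was highest on chromosomes 5, 18 and 10. On chromosome 5 they were 74 of 249 strong peaks (29.7%, 24.1 to 35.8) and on chromosome 10 they were 62 of 232 (26.7%, 21.1 to 32.9), and both intervals lay above the overall 20.8%. On chromosome 1 they were 78 of 487 (16.02%, 12.9 to 19.6) and on chromosome 19 they were 15 of 155 (9.68%, 5.52 to 15.5), both below it. The intervals of the other 19 chromosomes, chromosome 18 included (19 of 67, 28.4%, 18.01 to 40.7), held the overall share. These intervals are not adjusted for 23 chromosomes. The calls depended on the rule. The interval of chromosome 10 held the overall share under 5 of 6 other settings: with SNU216 peaks of any score (42.3%, 38.1 to 46.6, against 40.7%), at a score of at least 150 (19.05%, 13.05 to 26.3, against 15.4%), when 50% of both peaks had to overlap (34.05%, 27.98 to 40.5, against 30.4%), against MKN28 peaks that scored at least 100 (34.9%, 28.8 to 41.4, against 31.3%), and without peaks within 1 Mb of centromere bands and chromosome ends (26.2%, 20.6 to 32.4, against 20.7%). Chromosome 5 held it at 150 (21.3%, 15.1 to 28.6). Under the 50% rule chromosome 1 (26.9%, 23.01 to 31.1) and chromosome 19 (27.7%, 20.9 to 35.5) held it.

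**Figure D5:**
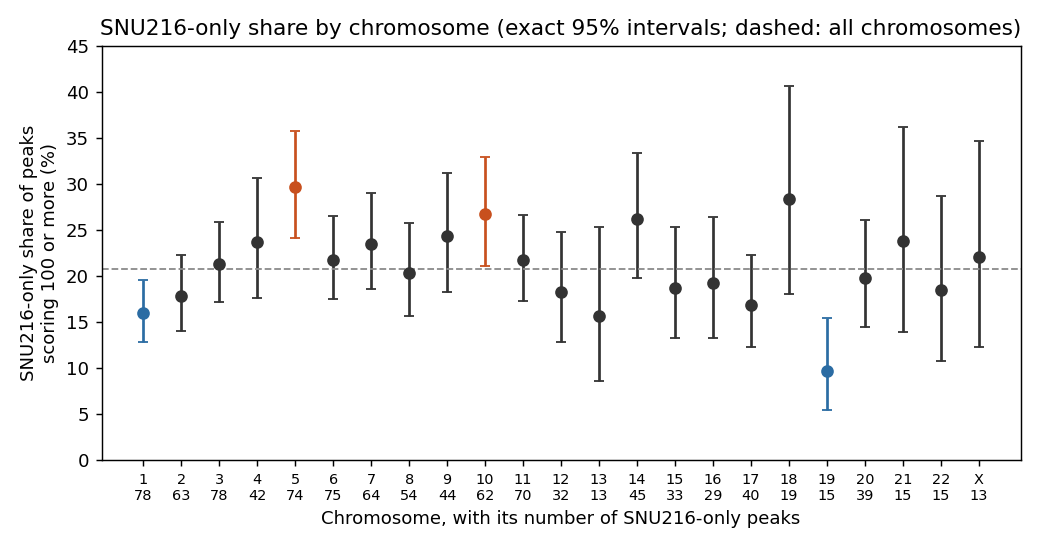
Share of strong SNU216 peaks that were SNU216-only (y axis, percent) by chromosome (x axis, with the number of SNU216-only sites), with exact 95% intervals and the overall share of 20.8% as a dashed line. Chromosomes 5 and 10 have intervals above the line and chromosomes 1 and 19 below it.

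The chromosomes differed in how far their sites lay from MKN28 peaks. The median distance was 5.16 kb for the 15 sites of chromosome 19, 8.56 kb for the 15 of chromosome 22 and 9.47 kb for the 78 of chromosome 1. It was 30.3 kb for the 78 sites of chromosome 3, 39.3 kb for the 19 of chromosome 18, 44.4 kb for the 13 of chromosome 13 and 79.5 kb for the 13 of X. MKN28 had 1535 peaks on chromosome 19, 929 on chromosome 22, 2089 on chromosome 3 and 407 on chromosome 18. These totals take no account of chromosome length. They therefore cannot show whether the distances followed the density of MKN28 peaks, which was not computed.

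Chromosome 19 had stretches of its long arm with no SNU216-only site. None of 29 strong SNU216 peaks from 40 to 45 Mb (19q13.2 to 19q13.31), where MKN28 had 153 peaks, was SNU216-only, and the exact interval reaches 11.9%. None of 19 from 45 to 50 Mb (19q13.31 to 19q13.33) was either, and the interval reaches 17.6%. The long arm of chromosome 19 is rich in genes and carries clusters of zinc finger genes. Of 86 blocks of 5 Mb with at least 15 strong peaks, 6 had an interval below the overall share and 1 above it. These intervals are not adjusted for 86 blocks, and those of bands and stain grades below are not adjusted either. The other 4 low blocks, in 1p36.11 to 1p35.3, 6q24.1 to 6q24.2, 11q12.2 to 11q13.1 and 14q11.2, also held no SNU216-only site among 16 to 20 strong peaks. The block above was chromosome 1 from 145 to 150 Mb (1q21.1 to 1q21.2), with 8 of 17 (47.06%, 22.98 to 72.2).

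The block with the most SNU216-only sites was chromosome 5 from 70 to 75 Mb (5q13.2 to 5q13.3), with 11 of 30 strong peaks (36.7%, 19.9 to 56.1). Next came chromosome 11 from 65 to 70 Mb (11q13.1 to 11q13.3), with 10 of 45 (22.2%), close to the overall share. By band, 8q24.21 held the most, 11 of 46 strong peaks (23.9%, 12.6 to 38.8), again close to the overall share. The band 5q32 followed with 10 of 24 (41.7%, 22.1 to 63.4), and 4 bands held 8 each: 5q13.2 with 8 of 15 (53.3%, 26.6 to 78.7), 3q12.1 with 8 of 9, 11p13 with 8 of 21 (38.1%, 18.1 to 61.6) and 7p12.3 with 8 of 23 (34.8%, 16.4 to 57.3). The intervals of 11p13 and 7p12.3 held the overall share. High counts in 8q24.21 and 11q13 thus came with many strong SNU216 peaks of both kinds. In 5q32, 5q13.2 and 3q12.1 SNU216-only sites were instead a larger part of the strong peaks. Bands with fewer sites varied widely, with 7 of 13 in 4q13.3 (53.8%, 25.1 to 80.8), 6 of 7 in 10q11.21 (85.7%, 42.1 to 99.6) and 0 of 15 in 19q13.31. A large share was thus not particular to 5q32, 5q13.2 and 3q12.1.

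By Giemsa stain, only the second darkest of the stained grades had an interval above the overall share. SNU216-only sites were 26.7% (23.1 to 30.6) of 550 strong peaks there. They were 24.7% (20.4 to 29.3) of 377 in the darkest grade and 21.04% (18.1 to 24.2) of 713 in the middle one, and both intervals held the overall share. They were 19.6% (18.1 to 21.1) of 2686 in unstained bands and 17.3% (14.1 to 20.9) of 509 in the lightest stained grade. Dark bands are poor in genes and unstained bands rich in them. Still, 526 of the 1012 SNU216-only sites (51.98%) were in unstained bands, against 56.05% of shared strong sites. Of 24 strong peaks in centromere bands, 8 were SNU216-only (33.3%, 15.6 to 55.3), and none of 7 in variable bands was, where the exact interval reaches 40.96%.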

How the data were processed

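The data are 1 peak list for the SNU216 TEAD4 library and 1 for the MKN28 TEAD4 library, each called against the input of its line as the lists' names state. Per the submitters' processing notes, the tools were Bowtie2 2.0.0, CASAVA 1.8 and MACS, on hg19. Their settings were not stated. For each peak the authors deposited a position and a score per peak (lowest 50.01 and highest 3117 in SNU216, 50.00 and 3170 in MKN28), without counts, so depth is unknown and the scale of the score is not stated. Scores are the authors' and were used to describe and rank peaks within a list; a score of an MKN28 neighbour describes that list only.

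Positions were made 1-based. Overlap meant at least 1 shared base, and distance the bases between nearest ends on the same chromosome. Chromosome lengths, bands and stains of hg19 came from circlize 0.4.16. Tables were handled with pandas 2.3.3 and numpy 2.4.6, and intervals computed with scipy 1.17.1, under Python 3.11.15. Shares carry exact 95% Clopper-Pearson intervals and medians exact binomial intervals. The code was checked on simulated data with planted overlaps, distances, clusters and widths. No gene, promoter or motif was analysed, since the reference tables used here are of another build. Input libraries were not analysed here.

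The members, lists and settings were chosen with earlier results of these data known. Named are the 15 highest-scoring sites, the 8 largest clusters (ties by the widest peak), the 8 farthest from and 5 nearest to an MKN28 peak, the 5 widest, those beside the threshold, and chromosomes whose interval excluded the overall share. Stretches, blocks and bands were chosen after their values were seen.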

Additional observations from a re-analysis of the deposited data

How the results depend on the processing

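Of 45 recomputed values, 19 stayed within the interval of the reported value or within 1.5 times the reported count, and 26 did not. The share of strong SNU216 peaks that were SNU216-only, 20.8%, was 40.7% with SNU216 peaks of any score, 15.4% at a score of at least 150, 30.4% when 50% of both peaks had to overlap, 19.1% when an MKN28 peak within 1 kb counted as shared, and 31.3% against MKN28 peaks that scored at least 100. Under those 5 settings in that order, the median distance was 19.7, 15.99, 4.99, 19.5 and 34.4 kb, and the share of sites in clusters was 48.9%, 15.6%, 32.2%, 25.8% and 35.9%. The clustered share was 19.1% with sites joined at 50 kb and 37.4% at 200 kb. The median width was 360.0 bp with any score, 523 bp at 150 and 470.0 bp with the 50% rule, and the width relative to shared peaks of like score was 0.98 with any score and 0.96 with the 50% rule. The cause of these changes was not tested.

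The number of chromosomes above the overall share, 2, was 5 with any score, 0 at 150, and 1 both with the 50% rule and without peaks near centromere bands and chromosome ends. The number below, 2, was 7 with any score and 0 with the 50% rule. Chromosome 5 stayed above the overall share under 5 of the 6 settings, chromosomes 1 and 19 below it under 5, and chromosome 10 above it under 1. No paired analysis was possible because each line has 1 library, and for the same reason no library could be left out. Unknown depth limits every statement on a site missing from the MKN28 list.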
